A study of Hernandia nymphaeifolia with 9 samples.

Results

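The genes described here are 37 assembled leaf genes of Hernandia nymphaeifolia whose counts were highest after 7 days of salt water, had come part of the way down by day 14, and were still above those of seedlings in fresh water. Hernandia nymphaeifolia is a tropical seashore tree that grows beside mangroves. They were chosen by their level in the 9 libraries among 315331 assembled genes. Levels are CPM, the counts of a gene summed over its isoforms and scaled to 1000000 counts per library. A gene was kept when its control mean was under 500 CPM, its lowest 7 d library reached at least 10 CPM and at least 1.5 times its highest 14 d library, and its lowest 14 d library was at least 1.5 times its highest control library. These values chose the genes, so the order of the 3 groups in them is a description and carries no test.

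The study compared leaf polyadenylated RNA of 9 potted seedlings, 2 years old, 1 library each. The control was 3 seedlings in fresh water (CK in the labels), and the salt groups were 3 seedlings with 300 mM NaCl for 7 d and 3 with 300 mM NaCl for 14 d. All groups were flooded to branch height for 3 h of each 12 h, so flooding was shared by control and salt. The labels do not say on which day control leaves were taken, so the length of the salt treatment and the date of sampling cannot be told apart. Both salt times are compared with the same 3 control libraries. Each library holds 13166552 to 14201943 estimated counts, given by assembled transcript in the deposited table, so that 3 counts were worth 0.211 to 0.228 CPM. The identifiers come without gene names or sequences, so no functions are given and leaf identity was not checked against markers. CPM are not scaled by transcript length, and ranks by CPM therefore rank reads, not transcript numbers. In bulk leaf RNA, a change in the number of cells of a type and a change in RNA per cell cannot be told apart.

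In leaves, salt around the roots first limits water uptake and later brings an accumulation of sodium and chloride. Plants answer with changes in hormone signalling, solute synthesis, ion transport and protection against oxidation. Many of the transcripts induced by such stress peak early and settle at a lower level that is still above that of unstressed plants.

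Some libraries lay more often than others at an end of their group. This was counted over 12972 genes with a control mean under 500 CPM and at least 10 CPM in the lowest 7 d library. Among them, 14 d replicate 3 was the highest 14 d library in 40.8% and the lowest in 40.9%. At 7 d, replicate 1 was the highest in 36.7% and the lowest in 41.4%. In control, replicate 1 was the lowest in 49.7% and replicate 3 the highest in 49.3%. Of these libraries, 14 d replicate 3 is the one at 14 d. Several summaries at 14 d are given with and without it, and the others with all libraries only. Among the 37 genes, replicate 2 was the lowest library in 30 at 7 d and in 22 at 14 d. Those summaries are not given singly without replicate 2.

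Together the 37 genes held a small and strongly changing part of the leaf RNA. They took 0.0207, 0.0272 and 0.0272% of the counts in control replicates 1 to 3. At 7 d they took 0.487, 0.332 and 0.463%, and at 14 d 0.149, 0.115 and 0.155%. The means were 0.0250 ± 0.00376% in control, 0.427 ± 0.0834% at 7 d and 0.140 ± 0.0215% at 14 d (SD, n = 3). In each group the libraries stayed clear of those of the other groups, as the choice of genes requires.

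Single genes differed widely in the size of the rise. The ratio of the 7 d mean to the control mean ran from 3.28 to 713, with a median of 12.9. At 14 d the ratio to control ran from 1.99 to 77.9, with a median of 4.36, or 3.79 without 14 d replicate 3. The 14 d mean was 7.15 to 61.0% of the 7 d mean, with a median of 40.1%, or 37.5% without 14 d replicate 3. On a log2(CPM + 0.5) scale, 41.1 to 77.6% of the rise at 7 d was left at 14 d, with a median of 59.0%, or 57.7% without 14 d replicate 3. For 29 genes this share lay between 50 and 75%, for 6 it was lower and for 2 it was higher. Taken library by library, the median share left was 63.8% in 14 d replicate 1, 56.1% in replicate 2 and 65.1% in replicate 3, a mean of 61.6 ± 4.86% (SD, n = 3).

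**Figure D1:**
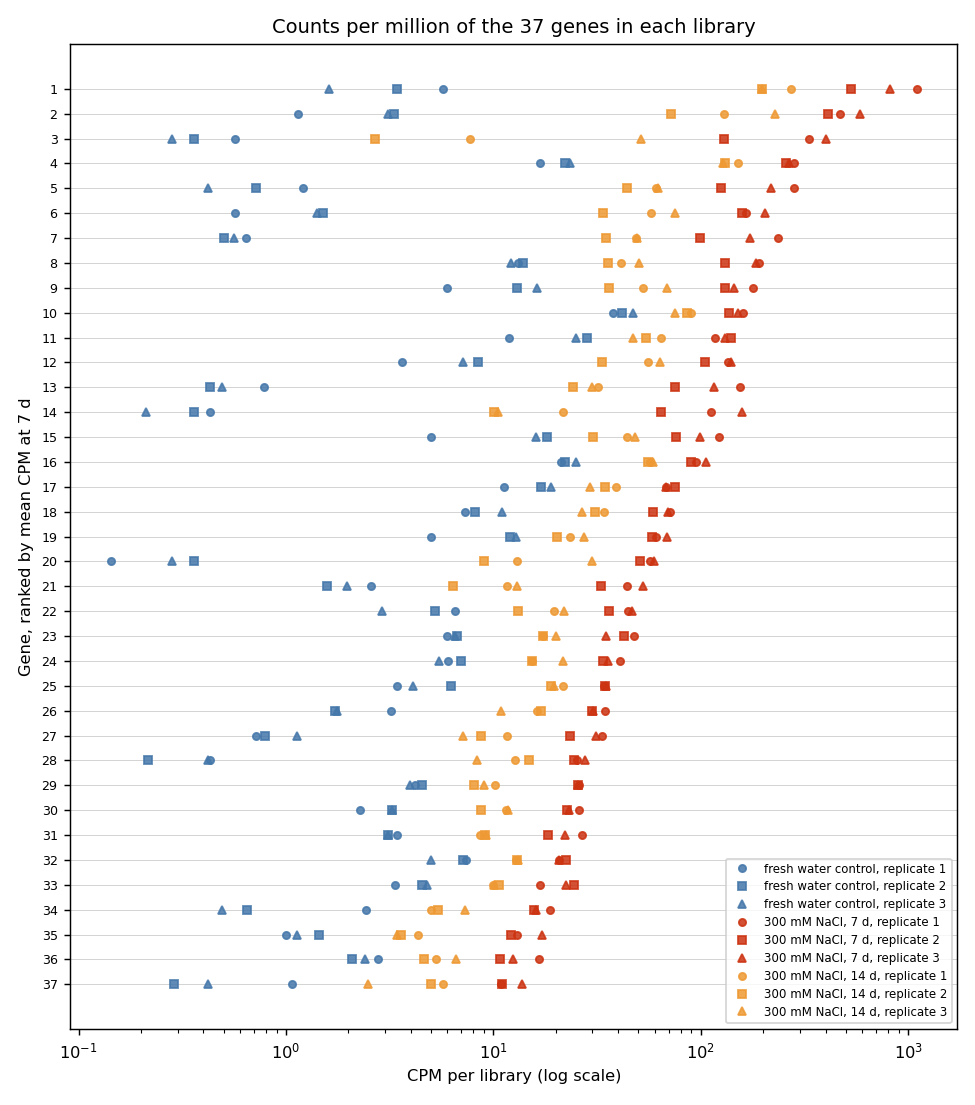
CPM of the 37 genes in each of the 9 libraries, on a log axis. Each row is a gene, ranked by its mean CPM at 7 d; colours are the groups and marker shapes the replicates. In every row the 3 libraries at 7 d lie right of those at 14 d, and these lie right of the controls, as the rule demands; gene 3 has the widest spread at 14 d.

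A set of 9 genes stood at least 100-fold above control at 7 d. Their control means were 0.261 to 3.59 CPM, and their 7 d means were 151 to 713 times higher. The remaining 28 genes lay 3.28 to 72.6 times above control at 7 d. At 14 d the 9 genes were still 42.3 to 77.9 times above control, although they had come down to 7.15 to 31.7% of the 7 d mean. Without 14 d replicate 3 they stood 12.9 to 73.6 times above control, at 1.81 to 28.6% of the 7 d mean. The other 28 kept 24.0 to 61.0% of the 7 d mean, or 20.9 to 60.6% without that replicate. The 9 genes gave 4.18 ± 1.17% of the counts of all 37 in control, 56.1 ± 5.80% at 7 d and 42.4 ± 5.14% at 14 d (SD, n = 3). Their control values rest on few counts, 11 to 151 over the 3 control libraries together, so their ratios are imprecise.

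TRINITY_DN5701_c0_g1 took the most reads at 7 d. It was at 5.70, 3.45 and 1.62 CPM in control replicates 1 to 3, at 1104, 528 and 821 CPM at 7 d, and at 271, 196 and 198 CPM at 14 d. The 7 d mean of 817 ± 288 CPM was 228 times the control mean of 3.59 ± 2.05 CPM (SD, n = 3). At 14 d the mean of 222 ± 42.5 CPM (SD, n = 3) was 61.8 times control and 27.1% of the 7 d mean. This gene alone gave 18.8 ± 3.50% of the counts of the 37 genes at 7 d and 16.0 ± 2.83% at 14 d (SD, n = 3). It has 7 assembled isoforms, of which the 2 leading ones, i8 and i13, stood at 251 to 531 and at 209 to 390 CPM at 7 d. Both came down together, to 74.9 to 128 and 74.0 to 117 CPM at 14 d.

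TRINITY_DN61115_c0_g3 had the largest ratio of 7 d to control and came down furthest. Its control libraries held 8, 5 and 4 counts, or 0.570, 0.359 and 0.282 CPM. At 7 d it was at 334, 129 and 401 CPM, a mean 713 times that of control. At 14 d it was at 7.71 and 2.69 CPM in replicates 1 and 2 but at 51.3 CPM in replicate 3, so that the highest 14 d library was 19.1 times the lowest. The 14 d mean of 20.6 ± 26.7 CPM (SD, n = 3) was 7.15% of the 7 d mean, and without replicate 3 it was 1.81%. Against control, the 14 d ratio was 51.0 with all libraries and 12.9 without replicate 3. Another gene of the same read cluster, which the rule did not keep, had no count in control. It was at 12.1, 5.30 and 18.9 CPM at 7 d and at 0.147, 0.0748 and 4.96 CPM at 14 d, so replicate 3 was the highest 14 d library there too.

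The level kept at 14 d is given here by the level in fresh water, as a description of genes chosen on these same values. A control mean under 1 CPM was found in 9 genes, which are not the same 9 as those over 100-fold. Of the latter, ranks 1, 2 and 6 had control means of 3.59, 2.51 and 1.16 CPM. The 9 genes under 1 CPM kept a median of 26.8% of the 7 d mean at 14 d. The 14 genes at 1 to 5 CPM kept 37.7%, and the 14 at 5 CPM or more kept 44.8%. The rule ties these measures, since a gene that rose little could not come down far and still be 1.5 times above control, so nothing is read from their order. On the log2 scale the order was the reverse, with medians of 70.5, 59.4 and 57.6% of the rise left, so the genes under 1 CPM in control lost the largest part of their 7 d level and still kept the largest part of their log2 rise, in medians.

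**Figure D2:**
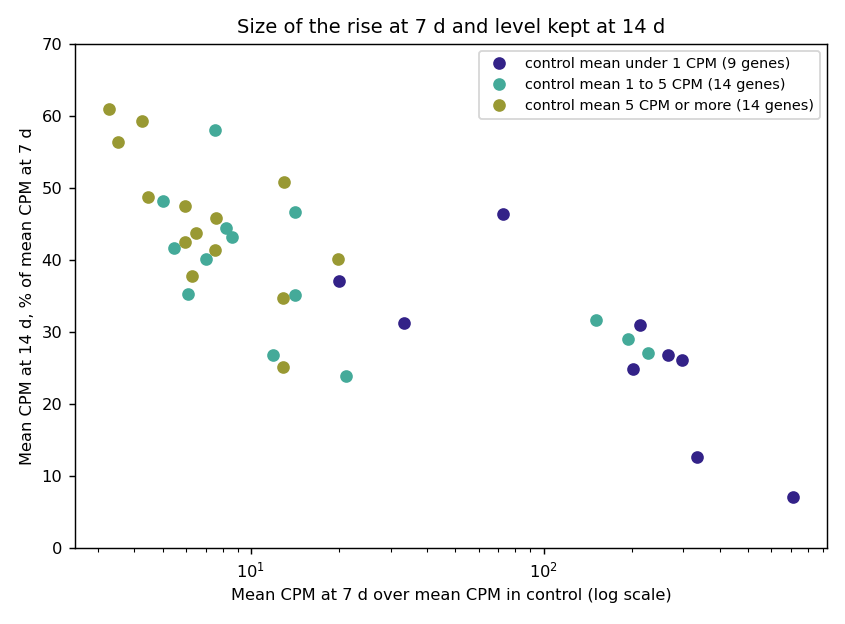
Ratio of mean CPM at 7 d to mean CPM in control (log axis) against the 14 d mean as a percentage of the 7 d mean, 1 point per gene, coloured by control level. The 9 genes over 100-fold kept 7.15 to 31.7%; the genes with the smallest rise kept the most, which the rule requires in part.

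At the thresholds of the rule, the nearest genes differed little from those kept. The smallest gap between 7 d and 14 d libraries among the 37 was 1.52 times, and the nearest gene outside had 1.49. The smallest gap between 14 d and control was 1.54 times, against 1.47 outside. The lowest 7 d library was at 10.8 CPM inside and 9.56 CPM outside. Of all genes, 684 missed only the gap between 7 d and 14 d, 256 only that between 14 d and control, and 109 only the minimum at 7 d. These counts hold genes at any distance from the limit. For the 684 and the 256, a gap between 7 d and control was not required, so not all were up at 7 d by the same factor. The sets that follow did require it. At the same thresholds, 558 genes were up at both salt times. In these the lowest 7 d library was under 1.5 times the highest 14 d library, so some could be higher at 14 d. Another 85 were up at 7 d and clear of 14 d, but their lowest 14 d library was under 1.5 times the highest control.

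In a fit across all genes, the 37 passed every comparison that had chosen them. The test was edgeR's quasi-likelihood test on 62564 genes, with a call where the Benjamini-Hochberg adjusted p was below 0.05. All 37 genes passed the filter on low counts. All 37 were called higher at 7 d than in control, where 11.3% of all genes tested were. All 37 were called higher at 14 d than in control, against 7.97% of all genes. All 37 were called lower at 14 d than at 7 d, against 4.37%. The rule used the same libraries, so nothing follows from these counts.

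The replicates of a group are treated alike by the rule, so their order within a group was not set by it. At 7 d, replicate 2 was the lowest library in 30 of the 37 genes and the highest in 4. At 14 d, replicate 2 was the lowest in 22 genes and the highest in 3, while replicate 3 was the highest in 21. Replicate 2 was lowest at both times in 21 genes. The replicates 2 of the 7 d and 14 d groups are separate seedlings. Over the 12972 genes with at least 10 CPM at 7 d, replicate 2 was lowest in 32.1% at 7 d and in 28.7% at 14 d. The 558 genes up at both times also had replicate 2 lowest most often, in 62.7% at 7 d and in 50.4% at 14 d. Among the 85 genes whose 14 d libraries missed the gap from control these shares were 58.8% and 62.4%. A low replicate 2 was thus seen in all 3 sets of salt-induced genes, and whether it differs between them was not tested.

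The spread between seedlings differed from gene to gene. In 9 of the 37 genes the highest 7 d library was at least 1.5 times the lowest, and in all 9 the lowest was replicate 2. Of these 9 genes, 6 were among those over 100-fold. At 14 d, 14 genes spread at least 1.5-fold, with replicate 3 highest in 9 and lowest in 4, and 5 of the 14 were among those over 100-fold. In control, 23 genes did. In 3 genes 14 d replicate 3 was at least 1.5 times both other libraries, and in 2 it was lower than both by that factor. The median SD on the log2 scale was 0.25 in control, 0.19 at 7 d and 0.26 at 14 d, beside 0.16, 0.13 and 0.14 over the 12972 genes. The other sets of salt-induced genes had like values, 0.21, 0.20 and 0.27 for the 558 genes up at both times. For the 85 that missed the gap from control they were 0.26, 0.20 and 0.26.

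**Figure D3:**
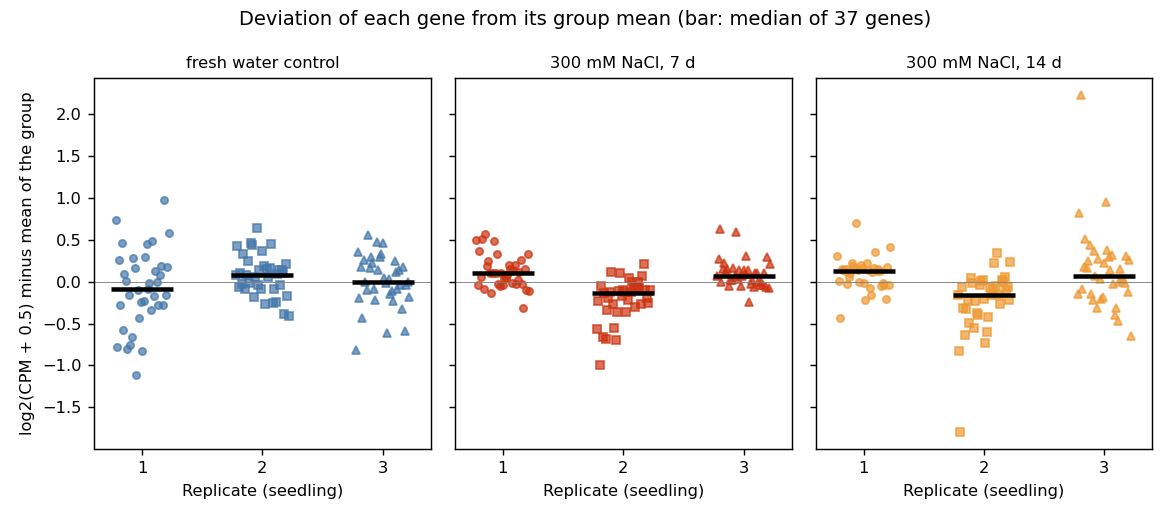
Deviation of log2(CPM + 0.5) from the mean of its group, for the 37 genes in each library; 1 panel per group, 1 point per gene, bars at the median. In replicate 2 of both salt groups most points lie below 0, where it was the lowest library in 30 and 22 of 37 genes; the highest point is gene 3 in 14 d replicate 3.

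The 37 genes lay in 34 read clusters of the assembly. A read cluster is a group of assembled genes that share sequence, and its genes may be copies of each other or pieces of 1 transcript. In 3 clusters 2 of the 37 genes lay together, so these 6 genes may be fewer separate genes. The pair of ranks 5 and 7 moved in step within salt, with a ratio of their CPM of 1.19 to 1.27 in the 6 salt libraries, while in control, at 0.422 to 1.21 and 0.503 to 0.642 CPM, the ratio ran from 0.750 to 1.89. They stood at 281, 124 and 219 CPM and at 237, 98.6 and 173 CPM at 7 d, and at 60.7, 44.3 and 62.0 CPM and at 48.8, 34.9 and 49.3 CPM at 14 d. The pair of ranks 11 and 17 had ratios of 1.58 to 1.94 in salt and 1.06 to 1.65 in control. The pair of ranks 12 and 30 had ratios of 3.83 to 6.07 in salt and 1.59 to 2.60 in control.

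Most other genes of the same clusters did not show the order of the 37 without overlap. Of 74 such genes, 55 reached 1 CPM in a group mean. In 3 of the 55 the 7 d libraries were all above the 14 d libraries and these above control, against 2.32% of 54574 genes outside the set. In 19 of the 55 (34.5%) the means had this order, against 21.99%. Several neighbours had their highest mean at 14 d, some of them in 1 cluster. The neighbour given here stood at 13.3, 20.4 and 17.2 CPM in control. It was at 395, 350 and 282 CPM at 7 d and at 1006, 825 and 405 CPM at 14 d. Its cluster partner among the 37, of rank 28, went from 0.355 ± 0.121 CPM in control to 25.8 ± 1.70 CPM at 7 d and 12.0 ± 3.36 CPM at 14 d (SD, n = 3). This neighbour was chosen after its values were seen, for its contrast with that partner.

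Isoforms are assembled variants of 1 gene, and the way a gene's counts are divided among them was not used by the rule, which took sums. Of the 37 genes, 10 had 1 assembled isoform and 27 had 2 to 8, with a median of 3 over all 37. The 12972 genes with at least 10 CPM at 7 d also had a median of 3, with 21.9% of single isoforms against 27.0% here. In 21 of the 27 genes the same isoform led in all 3 groups. The leading isoform at 7 d held 38.8 to 100% of its gene's counts, with a median of 60.6%. Of the 88 isoforms that reached 1 CPM in a group, 62 had all 7 d libraries above all 14 d libraries and these above all controls. The share was 1.93% of 62889 isoforms of all genes, but the sums of these isoforms had chosen the genes. In 20 of the 27 genes at least 2 isoforms showed this order, which the choice by sums favours. No such count over all genes is given, so nothing is read from it.

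Isoform use was tested in 25 of the 27 genes, those with at least 2 isoforms that passed the filter on low counts. The test was edgeR's quasi-likelihood test of each isoform against its gene, joined per gene by Simes' method and adjusted over 18721 genes. At 7 d against control, 2 of the 25 genes changed isoform use, where 7.22% of all genes tested did. Of the 12972 genes with at least 10 CPM at 7 d, 9803 were tested, and 10.3% of these changed. At 14 d against control the same 2 genes changed, against 3.86% and 5.78%. Between 14 d and 7 d 1 gene changed, against 3.05% and 4.29%. With 2, 2 and 1 genes called of 25, or 8, 8 and 4%, nothing sets the 37 apart from all genes. Among the 558 genes up at both times 90 of 392 tested changed use at 7 d. Among the 85 that missed the gap from control 13 of 54 did, and neither difference from the 37 genes was tested. The control counts behind this test are low. Over all 37 genes, tested or not, the median was 151 per gene in the 3 control libraries together, divided among its isoforms.

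The gene of rank 8 at 7 d had the lowest adjusted p for isoform use, and isoform i7 held most of its counts at 7 d. TRINITY_DN12261_c0_g2_i7 was at 0.428, 1.22 and 0.352 CPM in control, at 167, 101 and 152 CPM at 7 d, and at 24.4, 19.5 and 33.7 CPM at 14 d. TRINITY_DN12261_c0_g2_i5 stayed at 7.06, 8.40 and 7.25 CPM in control, 7.17, 11.0 and 9.42 CPM at 7 d and 9.32, 9.57 and 6.34 CPM at 14 d, and its groups overlapped. Isoform i8 of this gene had the order of the sum, at 2.28, 1.80 and 1.83 CPM in control, 11.5, 14.2 and 17.7 CPM at 7 d and 4.33, 3.81 and 7.07 CPM at 14 d. Isoform i2 was at 2.44 to 3.42 CPM in control, 4.34 to 5.54 CPM at 7 d and 2.91 to 3.08 CPM at 14 d, where it overlapped control. The share of i7 in the counts of its gene was 4.98 ± 3.32% in control, 82.3 ± 5.64% at 7 d and 60.4 ± 6.52% at 14 d (SD, n = 3). The share of i5 was 57.9 ± 3.83%, 5.75 ± 2.38% and 20.7 ± 7.24% (SD, n = 3). The gene was called for isoform use in all 3 comparisons, with edgeR adjusted p-values of 1.09e-09 at 7 d against control, 2.04e-08 at 14 d against control and 0.000614 between the salt times. Relative to its gene, i7 was higher at 7 d than in control by 2.78 on the log2 scale (edgeR adjusted p = 7.06e-10), and i5 changed by -2.37 (edgeR adjusted p = 2.68e-08). For i7 limma, an alternative, gave 6.60, but it sets an isoform against the other isoforms of its gene. edgeR sets it against the gene as a whole, so these are not 2 estimates of 1 size. Neither value is the log2 change of the share itself. Between 7 d and 14 d the use of i5 rose relative to the gene (edgeR adjusted p = 0.000443). That of i7 changed by -0.31 on the log2 scale and was not called (edgeR adjusted p = 0.802). By its own measure limma called i7, at -1.63 (limma adjusted p = 0.000281). Summed over isoforms, the gene stood at 13.2, 13.9 and 12.2 CPM in control, at 190, 131 and 184 CPM at 7 d and at 41.1, 35.8 and 50.1 CPM at 14 d, which is 12.9 times control at 7 d and 3.24 times at 14 d.

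The other gene called, of rank 16 at 7 d, also held an isoform that was not higher in salt. The gene stood at 21.1, 22.1 and 24.9 CPM in control, at 94.5, 89.4 and 105.8 CPM at 7 d and at 57.2, 55.7 and 58.7 CPM at 14 d. Its isoform i13 was at 14.0, 12.4 and 16.4 CPM in control, at 13.1, 10.7 and 10.5 CPM at 7 d and at 9.18, 10.1 and 7.36 CPM at 14 d, where all 3 libraries lay below control. Its isoform i8 was at 3.64, 5.24 and 4.15 CPM in control, at 43.7, 35.1 and 43.4 CPM at 7 d and at 23.7, 21.98 and 23.8 CPM at 14 d. The control leaves thus had i13 as the leading isoform, with 62.7 ± 5.98% of the counts, with SD over n = 3, and the salt leaves had i8, with 39.3 to 46.2% at 7 d and 39.5 to 41.5% at 14 d. The share of i13 was 11.9 ± 1.98% at 7 d and 15.6 ± 2.83% at 14 d (SD, n = 3). Isoform use differed from control at 7 d (edgeR adjusted p = 1.51e-05) and at 14 d (edgeR adjusted p = 0.000367), and was not called between the salt times (edgeR adjusted p = 1). Estimated counts divide reads that isoforms share, so a share is less certain than the sum of its gene.

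**Figure D4:**
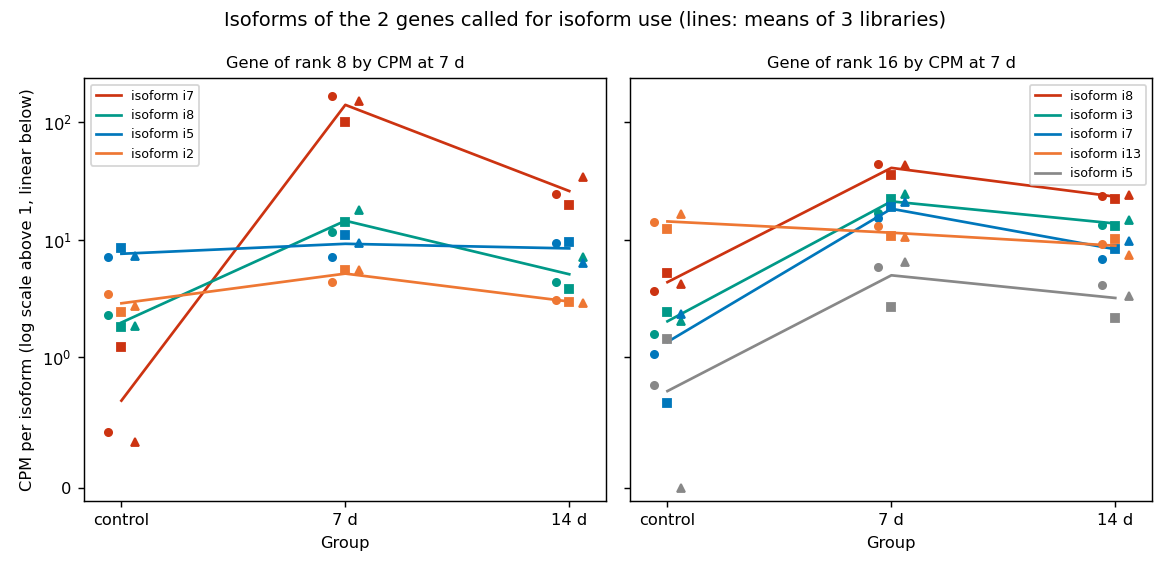
CPM of each isoform of the 2 genes called for isoform use (log scale above 1 CPM, linear below), by group; marker shapes are replicates 1 (circle), 2 (square) and 3 (triangle), and lines join group means. On the left, i7 climbs from 0.352 to 1.22 CPM in control to 101 to 167 CPM at 7 d while i5 stays between 6.34 and 11.0 CPM; on the right, the mean of i13 is highest in control.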

How the data were processed

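The authors deposited estimated counts for 416949 assembled transcripts, all whole numbers and not scaled to depth. Per the labels, they come from leaf polyadenylated RNA of 3 separate seedlings per group, prepared as DNA nanoballs. The submitters' processing notes list FastQC, HISAT2 and Salmon without giving a role to any. Per the file headers and rows, transcript identifiers are of Trinity form; how the assembly was made is not stated. Salmon divides reads that isoforms share.

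Counts were summed per gene and divided by the library total for CPM. For tests, features passing edgeR's filterByExpr (at least 10 counts, 15 in total) were scaled by TMM and fitted to the 3 groups in 1 quasi-likelihood model (R 4.3.3, edgeR 4.0.16); isoform use was tested with diffSpliceDGE. Both tests were checked on simulated counts. Alternatives were other scalings, filters, limits of the rule, a replicate block, single libraries left out, DESeq2 1.42.0 and limma 3.58.1. Tables and figures were made with Python 3.11.15, pandas 2.3.3 and matplotlib 3.10.9.

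Identifiers were printed by rule: the gene with the most CPM at 7 d, the gene with the largest ratio of 7 d to control (at least 3 counts in each control library), and, among genes called for isoform use, the isoforms whose share fell most from control to 7 d and from 7 d to 14 d. Other genes go by rank or count. The genes, sets and tests were chosen with earlier results of these data known. Limits from counts cover counting error only.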

Additional observations from a re-analysis of the deposited data

How the results depend on the processing

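The choice of the 37 genes depended on its limits: a factor of 1.3 between groups gave 75 genes, a factor of 2 gave 10, and a minimum of 5 CPM at 7 d gave 63. With 20 CPM it gave 31, and with TMM-scaled libraries 38, of which 34 were among the 37. Leaving out 1 library in turn gave 38 to 93 genes, all 37 among them each time, which follows from the rule having fewer libraries to satisfy; the count was 93 without 7 d replicate 2 and 91 without 14 d replicate 3. The median share of the log2 rise left at 14 d, 59.0%, lay between 57.5 and 61.1% under all alternatives run, and between 57.7 and 60.8% without single libraries. Calls at 7 d and at 14 d against control numbered 37 under all alternatives run, and those between the salt times 35 to 37 without single libraries and 36 with DESeq2. The rule used the same libraries, so nothing follows from these counts either. Over all genes tested, 34421 to 306838 by alternative, calls of level in either direction numbered 11348 to 18133 at 7 d. They numbered 7147 to 12332 at 14 d and 3358 to 9429 between the salt times. For isoform use at 7 d, 4 genes were called by the F test over all isoforms and 4 by limma, against 2, and 2 to 3 without single libraries; at 14 d 2 and between the salt times 1 were called under all alternatives run. Over all genes tested, calls of isoform use numbered 1351 at 7 d, 722 at 14 d and 571 between the times, against 3017, 1773 and 1358 by the F test and 2551, 1469 and 1020 by limma. Without single libraries, those at 7 d came to 873 (control replicate 2), 871 (7 d replicate 1) and 796 (7 d replicate 3), and those at 14 d to 470 (14 d replicate 1). Between the times they ran from 307 without 7 d replicate 1 to 908 without 14 d replicate 3. Calls of level between the times, 7045, came to 4041 and 3358 without 7 d replicates 1 and 3, and to 4346 and 3381 without 14 d replicates 1 and 2. The use of i5 kept its call in all 3 comparisons under the 14 alternatives run. That of i7 between the salt times was called only by limma, at -1.63 on limma's own measure (-0.31 by edgeR). With a replicate block, all 37 genes were called in each comparison of level, from which again nothing follows. Of all 62564 genes tested, 15164, 9757 and 6843 were called in either direction. For isoform use 2, 2 and 1 of the 25 genes were called, beside 1149, 548 and 408 of 18721. Same-numbered libraries had correlations of their deviations from -0.21 to 0.36, over 0.1 in 5 of 9 pairs. The highest was that of replicates 2 at 7 d and 14 d. A library correlated best with its own number in 8 of 18 cases. Whether same-numbered libraries shared handling was not tested. Depth limits the control values of the lowest genes, with 11 counts over the 3 libraries for the lowest.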
